A study of Mus musculus with 10 samples.

Results

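Interferon-stimulated genes are the antiviral and immune genes that cells switch on when interferon is sensed. The set described here holds 49 of them, listed by name with earlier results of these data known, out of 54838 genes listed for polyA RNA of crypts from the mouse jejunum. The 5 WT and 5 Arid3a cKO libraries (labelled KO) are 1 per animal. Arid3a cKO animals carried the tamoxifen-inducible VillinCre-ERT2 and floxed Arid3a alleles (Arid3a fl/fl), a Cre that the Villin promoter drives in intestinal epithelial cells. For the WT animals the labels give no allele beyond the word WT. Both genotypes received tamoxifen on 3 consecutive days and were collected 1 month after the first injection, at an age that the labels do not give. Villi were scraped from the opened jejunum before the crypts were released with EDTA, so crypt preparations can still hold cells of the villus. The identifiers in the sample descriptions begin with other letters in WT than in KO, and the labels do not say what these letters stand for.

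As background, interferons bind receptors at the cell surface, and kinases of the JAK family then activate transcription factors in the cell. A complex that includes STAT2 and IRF9 binds the interferon-stimulated response element (ISRE), and the gamma-activated site (GAS) is a second element, used mainly in the response to type II interferon. In the intestinal epithelium, type III interferon acts on enterocytes through the receptor chain IFNLR1 together with IL10RB. Enterocytes are born in the crypt and mature as they move up the villus, and some of their genes are switched on only at a given height. The question put to the data was whether interferon-stimulated genes differed between the genotypes in general, or only those of them that mark villus enterocytes.

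The letters of the ISRE were looked for in the RefSeq promoter windows of GRCm38.p6, which run from 250 bases before to 50 bases after each gene start. Of the 49 genes, 39 had a window, and the other 10 were Dhx58, Zbp1, Oas2, Usp18, Parp9, Parp14, Mx1, Mx2, Ifi27l2b and Rtp4. The pattern GAAANNGAAA, read on both strands and with overlapping matches allowed, was present in 21 of the 39 genes (53.8%) and in 1079 of all 27025 genes with a window (3.99%). The stretches that follow come from 4 genes that were higher in KO crypts (Ifit1, Isg15, Rsad2, Oas3) and 3 that were not called (Bst2, Gbp3, Gbp7). They are shown because genes called higher and genes not called carried the same pattern. Each is the longest run free of annotated exons within the 150 bases before a RefSeq start. It was read 5′ to 3′ on the strand of the gene, and capitals mark the ISRE letters. Gbp3 has a further RefSeq start, whose stretch (chr3:142560284-142560355) held 0 matches and is not shown.
Ifit1, chr19:34640744-34640870, plus strand: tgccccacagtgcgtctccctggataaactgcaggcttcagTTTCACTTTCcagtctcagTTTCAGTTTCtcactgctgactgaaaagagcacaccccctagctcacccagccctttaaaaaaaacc
Isg15, chr4:156200819-156200968, minus strand: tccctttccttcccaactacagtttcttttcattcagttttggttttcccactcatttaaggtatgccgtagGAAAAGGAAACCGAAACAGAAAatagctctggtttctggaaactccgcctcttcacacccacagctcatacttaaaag
Rsad2, chr12:26456453-26456602, minus strand: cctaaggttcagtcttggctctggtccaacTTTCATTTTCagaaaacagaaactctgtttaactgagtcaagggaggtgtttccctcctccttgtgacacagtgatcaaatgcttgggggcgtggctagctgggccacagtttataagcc
Oas3, chr5:120777662-120777795, minus strand: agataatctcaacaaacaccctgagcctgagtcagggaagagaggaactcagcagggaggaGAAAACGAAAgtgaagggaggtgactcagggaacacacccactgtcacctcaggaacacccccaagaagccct
Bst2, chr8:71537473-71537622, minus strand: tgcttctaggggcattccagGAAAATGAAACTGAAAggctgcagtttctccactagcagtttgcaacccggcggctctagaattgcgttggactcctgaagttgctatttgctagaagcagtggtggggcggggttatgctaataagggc
Gbp3, chr3:142559894-142560025, plus strand: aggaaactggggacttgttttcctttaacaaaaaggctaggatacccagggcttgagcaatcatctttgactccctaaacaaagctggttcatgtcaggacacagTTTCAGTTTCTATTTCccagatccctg
Gbp7, chr3:142530186-142530335, plus strand: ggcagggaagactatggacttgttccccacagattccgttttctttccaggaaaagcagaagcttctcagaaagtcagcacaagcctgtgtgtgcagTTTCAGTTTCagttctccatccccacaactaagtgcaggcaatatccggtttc

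Of the 39 genes with a window, the ISRE letters were found in 14 of the 28 that were higher in KO crypts and in 7 of the 11 that were not called. The GAS letters TTCNNNGAA, the same on both strands, were found in 3 of those 28 genes and in 6 of those 11, beside 2582 of all 27025 genes (9.55%). These matches describe letters in a window and do not show binding.

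Arid3a itself had 55 to 81 counts in the WT and 9 to 31 counts in the KO libraries, at log2 fold change -1.84 (SE 0.32, adjusted p = 0.00204). Library totals were 27050455 to 28152743 expected counts in WT and 28314069 to 31053622 in KO, and levels are given as CPM, expected counts scaled to TMM-normalized library sizes. WT replicates 3 and 4 had the lowest levels of villus enterocyte genes among the WT libraries, and counts are given with and without them. They were the end of a gradual series. The mean log2 CPM of mid villus genes, centered over libraries, was -0.34, 0.17, -1.27, -1.95 and -0.85 in WT replicates 1 to 5. Epithelial markers were present at a summed 4451 to 4902 TPM in WT and 4484 to 5298 TPM in KO. In RNA from whole crypts, a different number of cells of a type and a different amount of RNA per cell cannot be told apart.

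Most of the 49 interferon-stimulated genes were higher in Arid3a cKO crypts. By median log2 fold change, the IFIT, ISG15 and OAS groups were at the top and the interferon-inducible GTPases of the GBP and IRG families lowest. All 49 genes passed the filter on low counts, and 37 were higher and 0 were lower in KO at an adjusted p below 0.05 (edgeR), where 15.6% of all 14719 genes tested were higher (2298) and 12.7% were lower (1869). Scaled by library size alone, 36 of the 49 were higher and 0 lower, while over all genes 1541 were higher and 4030 lower. On the log2 scale, the 49 genes had a median change of 0.82 and all genes tested one of -0.03, and 45 of the 49 values were above 0. Of the 69 further interferon-stimulated genes tested, 20 were higher and 5 lower. At an unadjusted p below 0.05, 38 of the 49 were higher and 0 lower. In CPM, every KO library lay above every WT library in 27 of the 49 genes, against 12.0% of all genes tested, and every KO library lay below every WT library in 0 of the 49, against 7.63%. Overlap is judged in CPM unless TPM is named. In TPM, the groups overlapped in Stat2, Ddx58, Dhx58, Trim25, Oas2, Parp14, Mx1, Rsad2, Cmpk2 and Sp100 of these 27. Without WT replicates 3 and 4, 22 of the 49 were called higher, beside 9.77% of all genes then tested, and 44 of the 49 log2 fold changes were above 0. The calls lost without them were those on Irf9, Stat2, Dhx58, Zbp1, Oas1a, Oas1g, Oas2, Oasl1, Ifit3b, Cmpk2, Igtp, Ifi35, Ifi44, Xaf1 and Sp100. Leaving them out removes the WT libraries lowest in villus genes and leaves fewer WT libraries, and both can lower the count.

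**Figure D1:**
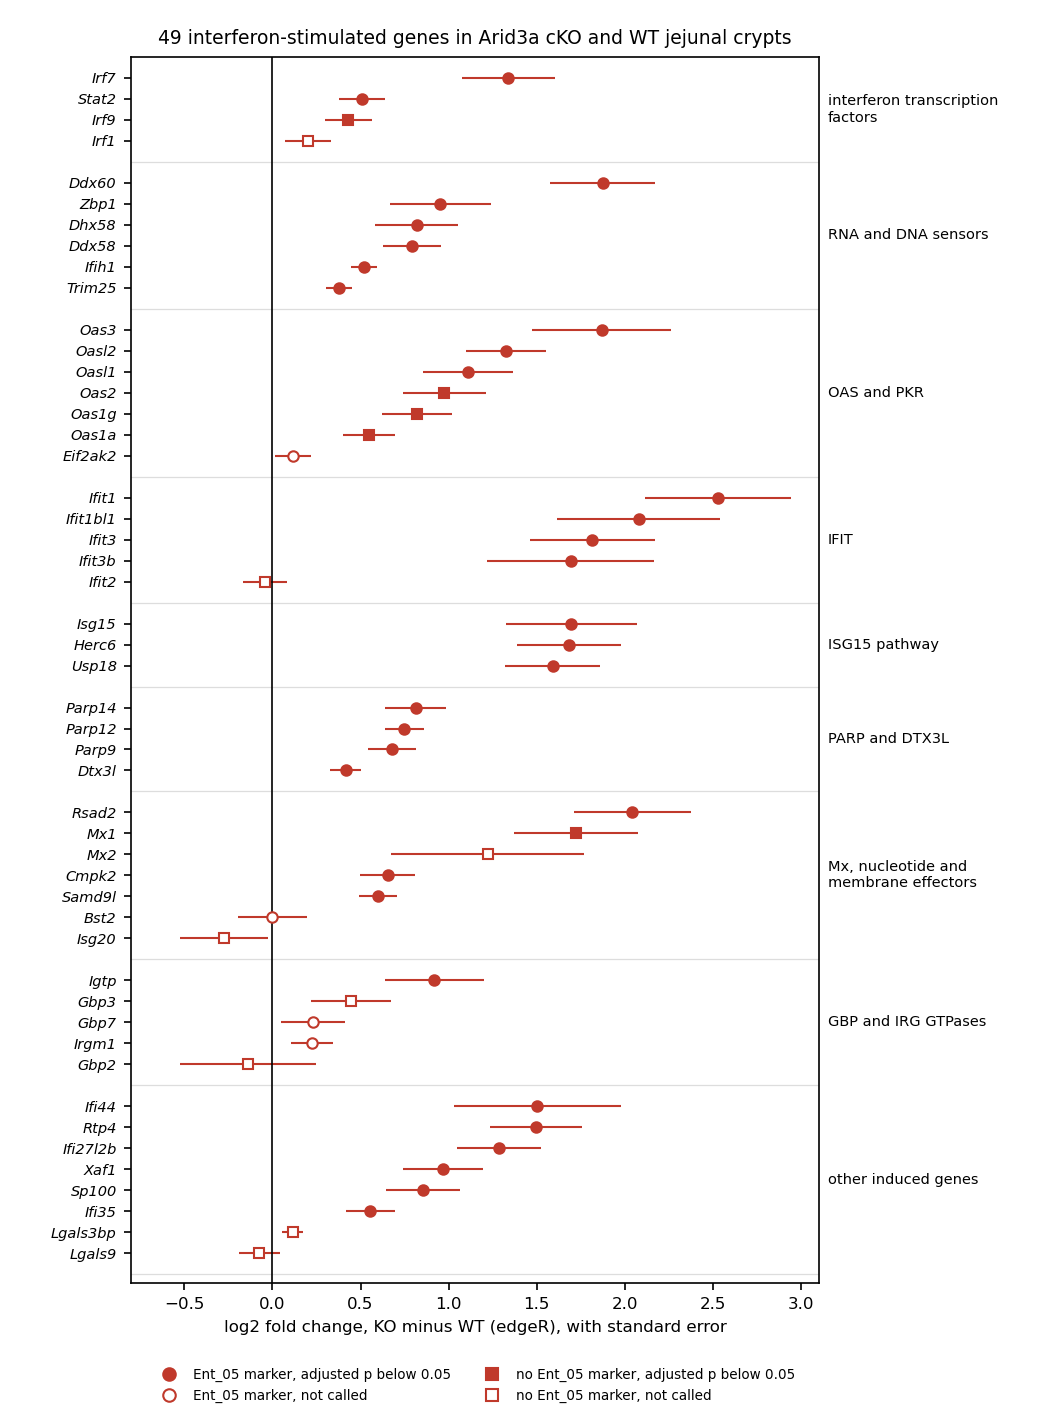
Log2 fold change (KO minus WT, edgeR, x axis) with its standard error for the 49 genes, grouped by role, over 5 WT and 5 KO libraries. Filled symbols mark the 37 genes called higher, open symbols the 12 not called, circles the 36 genes on the Ent_05 enterocyte marker list and squares the 13 others, and the values run from -0.27 (Isg20) to 2.53 (Ifit1).

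Per transcript length, most of the summed level lay in genes that were not called. The 49 genes summed to 1029 to 1258 TPM in WT and 1210 to 1697 TPM in KO. Lgals9, a galectin, had a mean of 439.8 TPM over the 10 libraries, and Lgals3bp, a secreted galectin ligand, had 229 TPM. Neither was called, and together with Irf1 they took 675 to 795 TPM in WT and 626 to 869 TPM in KO. The 37 called genes summed to 263 to 430 TPM in WT and 495 to 761 TPM in KO. Ifi27l2b, a small interferon-induced gene, was the most abundant called gene, at 78.8 ± 28.0 CPM in WT and 192 ± 36.1 CPM in KO (SD, n = 5 each; log2 fold change 1.29, SE 0.24, adjusted p = 0.00445). At the low end, 6 genes had a mean below 1 TPM (Mx2, Mx1, Oas2, Rsad2, Ifit3b and Ifi44), and single libraries held as few as 2 counts of Mx2.

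Among the transcription factors, 3 of 4 were higher. Irf7, which amplifies interferon production and response, had 14.8, 18.2, 7.67, 6.77 and 9.86 CPM in WT replicates 1 to 5 and 31.4, 26.5, 21.8, 32.5 and 32.7 CPM in KO replicates 1 to 5. The lowest KO library lay above the highest WT library, and the log2 fold change was 1.34 (SE 0.26, adjusted p = 0.00558). The ISRE-binding partners Stat2 (0.51, SE 0.13, adjusted p = 0.0131) and Irf9 (0.43, SE 0.13, adjusted p = 0.0305) had smaller differences, and the KO and WT values of Irf9 overlapped. The call on Irf9 was lost without WT replicate 3 (adjusted p = 0.0722), WT replicate 4 (0.0667), KO replicate 1 (0.0733), KO replicate 4 (0.0610) or KO replicate 5 (0.0841). Irf1, an early responder to type II interferon and the most abundant of the 4, had 117, 114, 90.4, 80.7 and 118 CPM in WT and 148, 94.3, 113, 121 and 123 CPM in KO. These ranges overlapped, and the gene was not called (log2 fold change 0.20, SE 0.13, adjusted p = 0.276).

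All 6 sensors of viral nucleic acid or their partners were higher. Ddx60, a helicase that assists RNA sensing, had 8.11, 8.58, 3.97, 3.42 and 3.38 CPM in WT and 23.9, 17.4, 14.9, 25.1 and 19.3 CPM in KO. It had the largest difference of the group, 3.66-fold (log2 fold change 1.87, SE 0.30, adjusted p = 0.00218), without overlap. Trim25, the ubiquitin ligase that activates RIG-I and the most abundant gene of the group, had 109, 93.7, 112, 97.8 and 92.0 CPM in WT and 144, 120, 133, 132 and 129 CPM in KO. Its difference was small, at log2 fold change 0.38 (SE 0.07, adjusted p = 0.00400). The groups did not overlap in CPM but did in TPM (up to 26.7 in WT, from 25.68 in KO). Ddx58, which encodes RIG-I, stood at 0.79, Ifih1 (MDA5) at 0.52, Dhx58 (LGP2) at 0.82 and Zbp1, a sensor of Z-form nucleic acid, at 0.95 on the log2 scale. The call on Zbp1 was lost without WT replicate 3 (adjusted p = 0.0670), KO replicate 1 (0.0699) or KO replicate 5 (0.0686), and that on Dhx58 without WT replicate 4 (0.0512).

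The OAS genes encode enzymes that make oligoadenylates upon sensing double-stranded RNA, or relatives of them. All 6 were higher, at log2 fold changes of 0.55 (Oas1a), 0.82 (Oas1g), 0.98 (Oas2), 1.11 (Oasl1), 1.33 (Oasl2) and 1.87 (Oas3). Oas3 had 4.28, 4.51, 1.90, 1.14 and 1.16 CPM in WT and 11.2, 8.81, 6.40, 10.5 and 10.6 CPM in KO. WT replicates 3 to 5 lay well below WT replicates 1 and 2, and all KO libraries lay above both (SE 0.39, adjusted p = 0.00727). Oasl2, the most abundant of the group, had 17.9, 19.5, 12.8, 7.91 and 13.0 CPM in WT and 47.3, 29.8, 29.9, 37.6 and 33.7 CPM in KO (SE 0.23, adjusted p = 0.00280). Eif2ak2, which encodes the double-stranded RNA kinase PKR, was not called (42.7 ± 6.49 CPM in WT and 46.4 ± 3.54 CPM in KO, SD, n = 5 each; log2 fold change 0.12, SE 0.10, adjusted p = 0.406). Oas1a, Oas1g, Oas2 and Oas3 lie together on chr5:120730333-120907521 of GRCm38, and Oasl1 and Oasl2 on chr5:114896936-114937915.

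The IFIT genes, whose products bind foreign RNA ends and block its translation, held the largest difference of the 49 genes. Ifit1 had 2.79, 4.24, 1.93, 0.670 and 2.33 CPM in WT and 22.5, 11.8, 8.85, 15.2 and 10.7 CPM in KO, a 5.77-fold difference (log2 fold change 2.53, SE 0.42, adjusted p = 0.00277). Every KO library held at least 8.85 CPM, and KO replicate 1 was the highest. Ifit1bl1, a close relative, had 5.88, 6.82, 2.99, 1.47 and 4.04 CPM in WT and 35.1, 12.2, 13.0, 18.5 and 10.4 CPM in KO (log2 fold change 2.08, SE 0.46, adjusted p = 0.0108). Ifit3 (1.81, SE 0.35) and Ifit3b (1.69, SE 0.47) were also higher, while Ifit2 had 3.81 ± 0.29 CPM in WT and 3.71 ± 0.32 CPM in KO (SD, n = 5 each; log2 fold change -0.04, SE 0.12, adjusted p = 0.839). The call on Ifit3b was lost without KO replicate 1 (adjusted p = 0.0546). All 5 genes lie within chr19:34550694-34650009. The log2 standard error of Ifit2 was the smallest of the 5.

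Some of these genes are near copies, and RSEM divides their shared reads by estimation. Of the windows of 50 bases along their GENCODE vM21 transcripts, 51.2% of Ifit3 also occurred in Ifit3b, and 57.6% of Oas1a also occurred in Oas1g. The split within each pair is therefore uncertain. Summed, Ifit3 and Ifit3b had 2.20 ± 1.00 CPM in WT and 7.61 ± 2.98 CPM in KO, with the lowest KO library (5.12) above the highest WT library (3.51). Oas1a and Oas1g summed to 22.1 ± 3.96 CPM in WT and 33.5 ± 7.05 CPM in KO, with overlap (SD, n = 5 each).

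All 3 genes of the ISG15 pathway were higher by similar amounts. Isg15, a ubiquitin-like protein that is coupled to other proteins, had 1.57, 3.13, 1.15, 0.670 and 1.27 CPM in WT and 7.68, 4.06, 3.08, 5.81 and 4.66 CPM in KO. The lowest KO library lay just below the highest WT library, and the log2 fold change was 1.70 (SE 0.37, adjusted p = 0.00734). Herc6, the mouse ISG15 ligase (1.68, SE 0.29, adjusted p = 0.00258), and Usp18, which removes ISG15 and restrains the type I receptor (1.59, SE 0.27, adjusted p = 0.00190), had no overlap between the groups.

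The PARP and DTX3L group, ADP-ribosyltransferases and their ubiquitin ligase partner, was higher in 4 of 4 genes. Parp9 had 39.9, 41.2, 30.4, 26.9 and 30.3 CPM in WT and 66.9, 46.3, 53.8, 47.2 and 55.6 CPM in KO (log2 fold change 0.68, SE 0.14, adjusted p = 0.00441). Parp14 had 35.4, 28.3, 20.3, 19.7 and 23.9 CPM in WT and 57.3, 37.6, 37.1, 46.1 and 46.1 CPM in KO (0.81, SE 0.17, adjusted p = 0.00653). Neither gene had overlap between the groups in CPM, while Parp14 overlapped in TPM (up to 6.59 in WT, from 6.04 in KO). Parp12 stood at 0.75 and Dtx3l at 0.42. Parp9 and Dtx3l overlap on chr16:35938470-35939151, where reads cannot be assigned to one of them without strand.

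Effectors against membranes, nucleotides and incoming virus were mixed, with 4 of 7 higher. Rsad2, which encodes the viral nucleotide-analog enzyme viperin, had 0.209, 0.551, 0.373, 0.435 and 0.691 CPM in WT and 2.43, 1.95, 1.12, 2.45 and 1.40 CPM in KO. In CPM, all KO libraries lay above all WT libraries, at 4.12-fold (log2 fold change 2.04, SE 0.33, adjusted p = 0.00160), although no library held more than 72 counts. In TPM the difference was smaller, at 0.326 ± 0.217 in WT and 0.676 ± 0.231 in KO (SD, n = 5 each). The groups then overlapped, with the highest WT library at 0.70 and the lowest KO library at 0.36. Its neighbor gene Cmpk2, a mitochondrial nucleotide kinase (0.66), Samd9l, a translation inhibitor (0.60), and Mx1, a dynamin-like antiviral GTPase (1.72, 0.235 ± 0.081 CPM in WT and 0.785 ± 0.271 CPM in KO), were also higher. Bst2, the tether of budding virus, had 4.56, 4.37, 4.68, 5.46 and 8.18 CPM in WT and 7.04, 4.46, 5.84, 4.45 and 5.45 CPM in KO. The groups overlapped and the log2 fold change was 0.00 (SE 0.19, adjusted p = 0.998). Isg20, an RNA exonuclease (-0.27, SE 0.25, adjusted p = 0.435), and Mx2, annotated as a polymorphic pseudogene in the mouse reference (1.22, SE 0.55, adjusted p = 0.113), were not called. Without WT replicate 2, Mx2 passed the test (log2 fold change 1.96, adjusted p = 0.0122).

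The GBP and IRG GTPases, which act on vacuoles of intracellular microbes and respond strongly to type II interferon, had the lowest median of the role groups (0.23). Of these 5 genes 1 was higher (20%), near the 15.6% of all genes tested, and this share is not read as a result about the group. That gene was Igtp, with 11.8, 10.3, 5.46, 4.76 and 8.76 CPM in WT and 18.6, 8.66, 16.5, 18.9 and 14.9 CPM in KO (log2 fold change 0.92, SE 0.28, adjusted p = 0.0328). KO replicate 2 lay inside the WT range. The call was lost without WT replicate 3 (adjusted p = 0.0700), WT replicate 4 (0.0618), WT replicate 5 (0.0632), KO replicate 1 (0.0731), KO replicate 3 (0.0618), KO replicate 4 (0.0693) or KO replicate 5 (0.0637), and in a fit blocked on replicate number (0.0961). Irgm1, the most abundant of the group, had 45.9, 40.1, 30.8, 33.4 and 34.4 CPM in WT and 50.2, 40.0, 48.1, 36.6 and 40.5 CPM in KO (0.22, SE 0.12, adjusted p = 0.180). Gbp2 (-0.14, SE 0.39), Gbp3 (0.45, SE 0.22) and Gbp7 (0.23, SE 0.18), neighbors on chr3:142530342-142638008, were not called either.

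Of the remaining 8 genes, 6 were higher. Besides Ifi27l2b these were Rtp4, a chaperone of receptors (1.50), Xaf1, a promoter of apoptosis (0.97), Sp100, a nuclear body protein (0.86), Ifi35 (0.56) and Ifi44 (1.50, SE 0.47, adjusted p = 0.0325). Ifi44 had 0.870, 0.861, 0.238, 0.234 and 0.691 CPM in WT and 3.34, 1.55, 1.57, 0.918 and 0.833 CPM in KO. KO replicate 5 lay below WT replicates 1 and 2, and the call was lost without KO replicate 1 (log2 fold change 1.07, adjusted p = 0.0948), WT replicate 3 (0.0686), WT replicate 4 (0.0738), WT replicate 5 (0.0538), KO replicate 2 (0.0567) or KO replicate 3 (0.0535). Lgals9 had 553, 574, 508, 497 and 471 CPM in WT and 622, 472, 553, 410.5 and 414 CPM in KO, with overlap (log2 fold change -0.08, SE 0.12, adjusted p = 0.656).

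**Figure D2:**
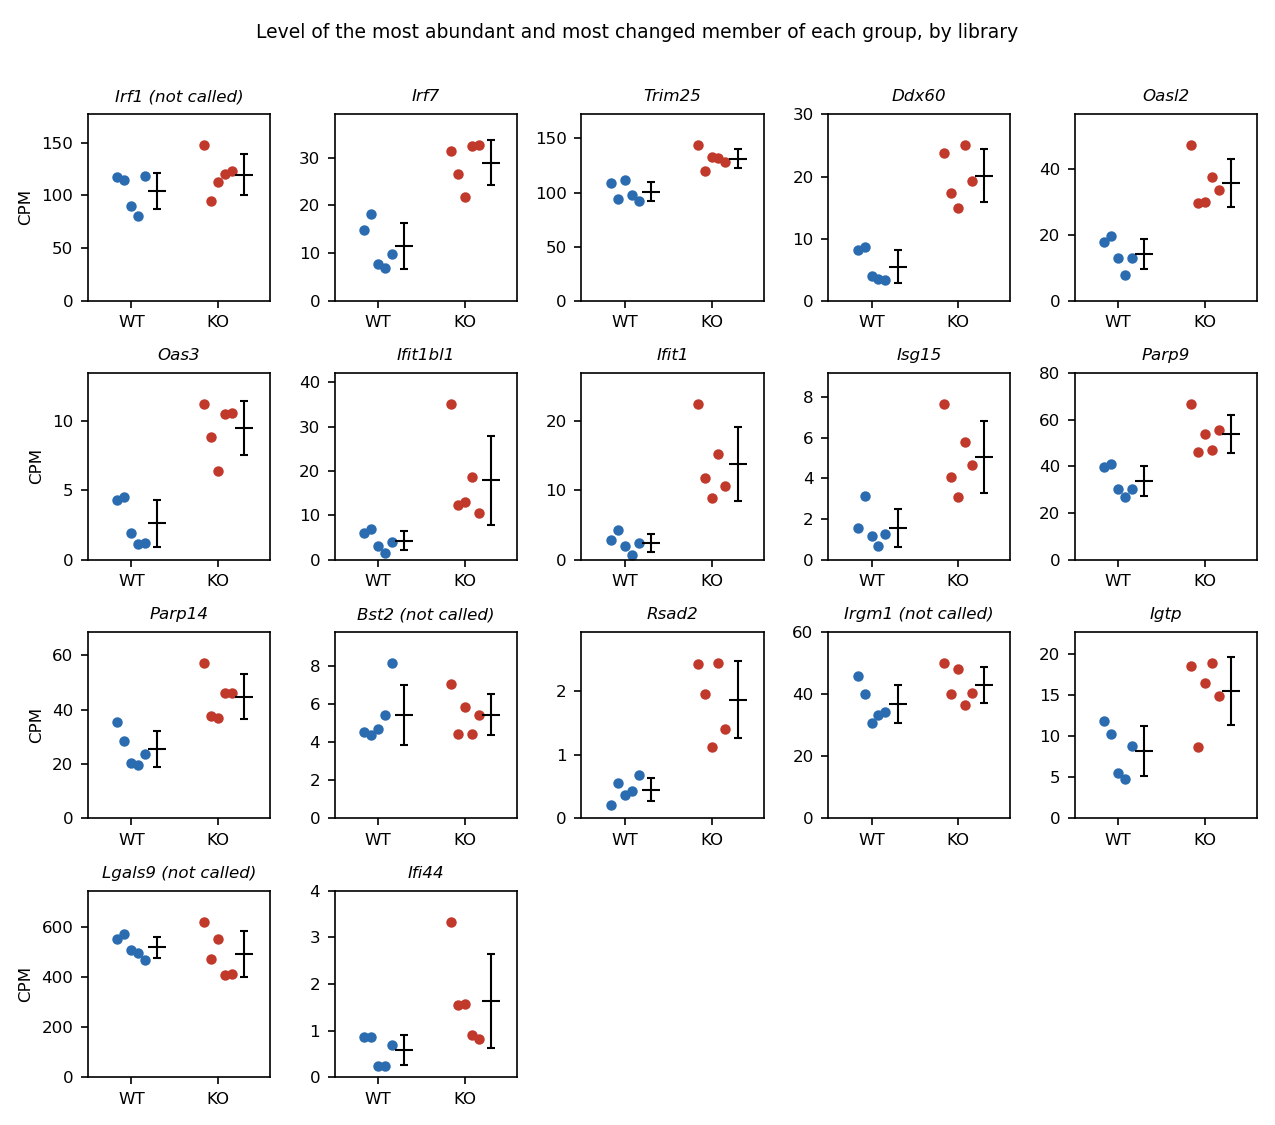
CPM on TMM-normalized library sizes (y axis, from 0, own scale per gene) in each WT (blue, replicates 1 to 5 from left) and KO library (red, likewise), with mean ± SD beside them, for the most abundant and the most changed gene of each role. The groups are apart in Irf7, Ddx60, Ifit1 and Rsad2 and overlap in Irf1, Bst2, Irgm1 and Lgals9.

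The KO libraries did not contribute alike. KO replicate 1 held the highest KO value in 39 of the 49 genes and in 31 of the 37 called genes. Among WT libraries, replicate 4 held the lowest value in 24 of the 49 and in 22 of the 37. How often these libraries were the extreme over all genes was not computed. Without KO replicate 1, 32 of the 49 genes were called higher, beside 12.8% of all genes then tested. The median of the 49 then stood at 0.71 on the log2 scale.

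To ask about markers of villus enterocytes, the genes were split by Ent_05, a list of 237 marker genes. The names on it are those given for an enterocyte cluster of single cells, taken from both genotypes in other libraries of the study. Of the lists of villus genes written for this work, Ent_05 held 2 of 7 lower villus genes, 5 of 11 mid villus genes and 2 of 9 upper villus genes, and 0 of 10 crypt base and cycling genes. It held 36 of the 49 interferon-stimulated genes, so these genes are themselves a large part of what marks that cluster. Another enterocyte list of the study, Ent_04 (201 genes), held 2 of the 49. Ent_04 held 6 of 11 mid villus genes and 3 of 9 upper villus genes. Of 194 tested Ent_04 markers in no interferon list, 173 were higher and 0 lower, at a median of 1.54. The split by Ent_05 is therefore by markers of a single enterocyte cluster and not by height along the villus. The study's marker lists of intestinal stem cells and of transit amplifying cells held 0 of the 49. Its tuft cell list held 7, its goblet cell list 6 and its enteroendocrine list 3, and 2 of the 13 genes outside Ent_05 were on one of those 3 lists.

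Beside the counts that follow, 15.6% of all genes tested were higher and 12.0% had KO above WT without overlap. Of the 36 genes on the list, 32 were higher (88.9%), the median change was 0.94 on the log2 scale, and KO was above WT without overlap in 25. The 4 not called were Eif2ak2, Bst2, Gbp7 and Irgm1. Of the 13 genes off the list, 5 were higher (38.5%: Irf9, Oas1a, Oas1g, Oas2 and Mx1), the median was 0.43, and 2 (Oas2 and Mx1) had no overlap in CPM, though both overlapped in TPM. The Oas genes among these 5 lie in 1 cluster, and Oas1a and Oas1g share sequence. Mx1 held at most 10 counts in any WT library, so its passing of the low-count filter rested on the KO libraries. Its TPM ran from 0.13 to 0.71 in WT and from 0.28 to 0.92 in KO. Without WT replicates 3 and 4, 21 of the 36 and 1 of the 13 (Mx1) were called higher, beside 9.77% of all genes then tested. The share off the list was then no higher than that of all genes, though 13 genes are few for such a share. The log2 fold changes of the calls lost off the list were then 0.25 (Irf9), 0.44 (Oas1a), 0.60 (Oas1g) and 0.89 (Oas2). The difference between both parts of the split was not tested, since genes are not replicates.

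Genes of the interferon response outside the 49 were split in the same way. Of 79 further interferon-stimulated genes, 69 were tested, 20 were higher and 5 were lower, at a median of 0.20, where 15.6% of all genes were higher and 12.7% lower. The count of 20 fell to 13 of 70 without KO replicate 1, where 12.8% of all genes tested were higher. It fell to 10 of 70 without WT replicates 3 and 4, where 9.77% were, so calls were fewer over all genes too. On the Ent_05 list were 23 of them, with 14 higher, 0 lower and a median of 0.47. These included Ifit1bl2, a neighbor of Ifit1 (2.59, SE 0.47, adjusted p = 0.00489), and the apolipoprotein gene Apol9a (1.83, SE 0.27, adjusted p = 0.00123). Off the list were 46 tested genes, with 6 higher (13.0%), 5 lower (10.9%) and a median of 0.01, shares no larger than those of all genes. The 6 were Cxcl11, a T cell chemokine (1.66), B2m, the light chain of MHC class I (0.73), Ifi27 (0.67), Tdrd7 (0.51), Plscr1 (0.43) and Tapbp, a peptide loading factor (0.38). The 5 were Gbp2b (-1.50), Cxcl9 (-1.35), the membrane restriction factors Ifitm3 (-0.76) and Ifitm2 (-0.46), and Slfn9 (-0.38). Several of these names were chosen after their values were seen.

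The Ent_05 markers in no interferon list were higher as well. The interferon lists meant here are those written for this work. The rest still holds MHC genes, such as H2-Q1 (1.76), H2-T23 (0.82) and H2-Aa (-0.86, not called), while B2m was listed as interferon-stimulated. It may therefore not be free of interferon-stimulated genes. Of these 175 Ent_05 markers, 149 were higher and 0 were lower, at a median of 1.17. KO lay above WT without overlap in 116. Their summed level was 5931 to 17788 TPM in WT and 18598 to 32593 TPM in KO.

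**Figure D3:**
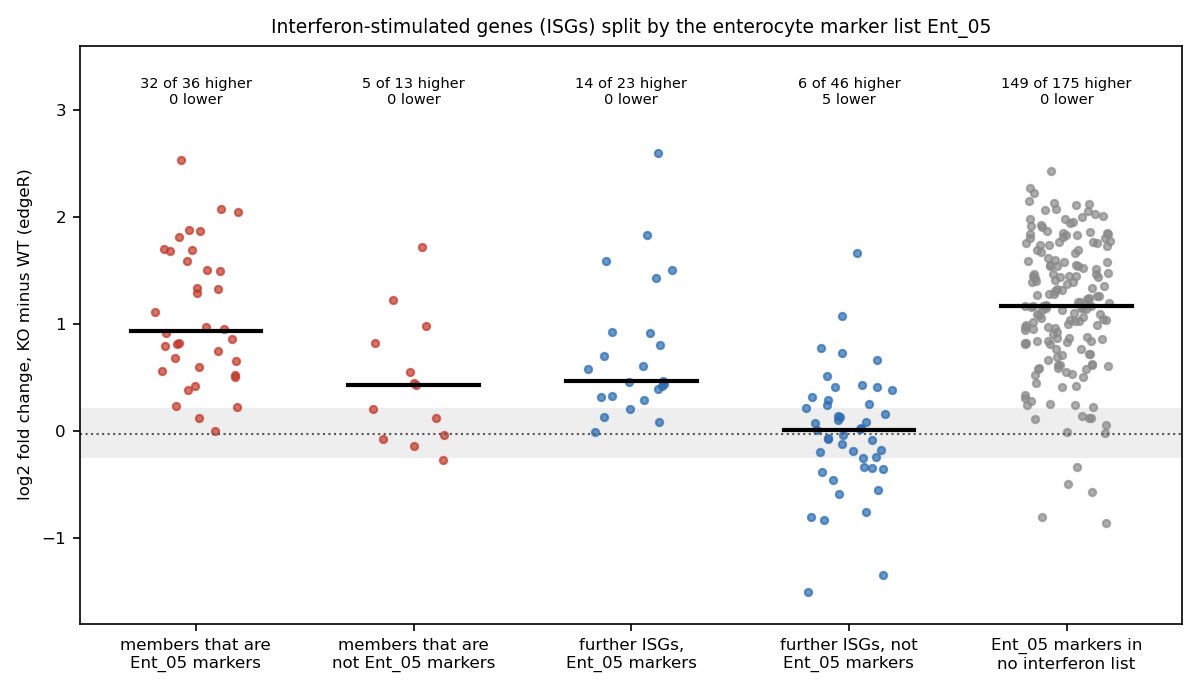
Log2 fold change (KO minus WT, edgeR, y axis) of single genes (points) in 5 lists, with the median of each list (black bar) and the number called. The gray band spans the middle 50% of all 14719 genes tested and the dotted line is their median of -0.03. The 36 genes on the Ent_05 list center at 0.94, the 13 off it at 0.43 and the 175 markers in no interferon list at 1.17.

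By library, the level of the 36 genes moved with that of the other Ent_05 markers among the WT animals. The mean centered log2 CPM of the 36 was -0.27, -0.12, -0.83, -0.996 and -0.55 in WT and 0.99, 0.32, 0.33, 0.64 and 0.48 in KO. That of the 175 other markers was -0.30, 0.09, -0.97, -1.36 and -0.57 in WT and 0.68, 0.45, 0.30, 0.84 and 0.85 in KO. In both lists WT replicate 2 was the highest and WT replicate 4 the lowest WT library, while KO replicate 1 was the highest KO library in the first list only. The 36 minus the 175 gave 0.03, -0.20, 0.15, 0.36 and 0.02 in WT and 0.32, -0.13, 0.03, -0.20 and -0.37 in KO, which overlapped. The 13 genes off the list stood at -0.09, -0.06, -0.47, -0.37 and -0.19 in WT and 0.60, 0.11, 0.11, 0.23 and 0.13 in KO, all KO libraries above all WT libraries. Lists of immune cell markers were set beside these, and the cause of the order among WT libraries was not tested. Markers of T cells and intraepithelial lymphocytes stood at 0.68, 0.50, -0.61, -1.12 and 0.12 in WT, also lowest in replicates 3 and 4. Markers of macrophages and dendritic cells ranked otherwise, at 0.83, -0.16, 0.45, 0.39 and 0.95 in WT.

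**Figure D4:**
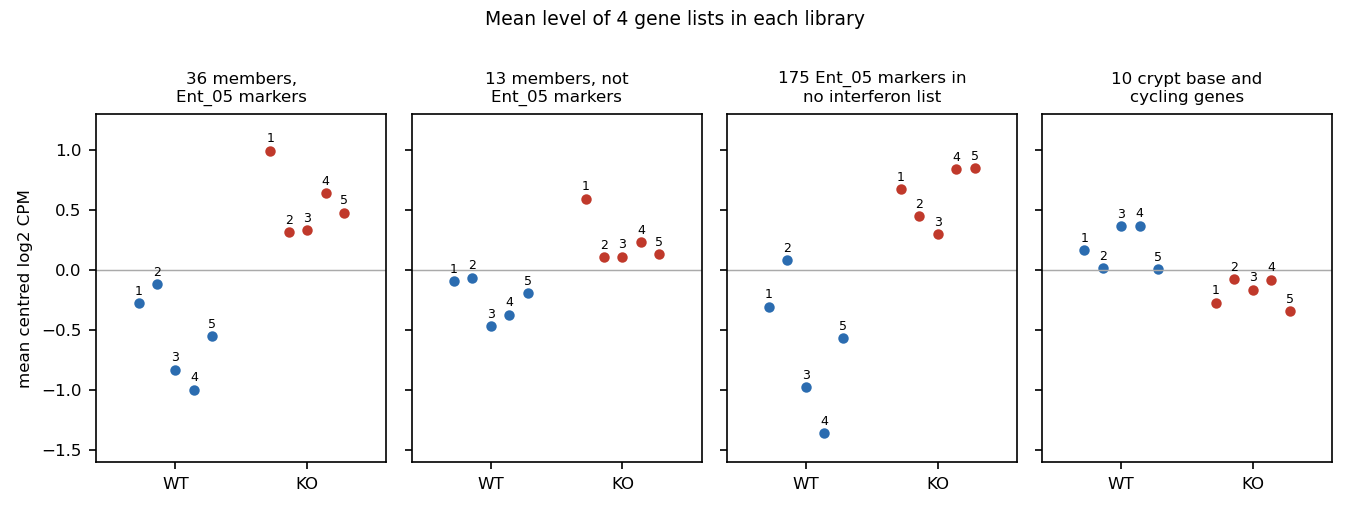
Mean centered log2 CPM (y axis) of 4 gene lists in each library, with WT in blue, KO in red and the replicate number above each point. Among WT libraries, replicates 3 and 4 were lowest in the 3 lists of enterocyte or interferon genes and highest in the 10 crypt genes, and KO replicate 1 was highest in both lists of interferon-stimulated genes.

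Villus and crypt genes moved with these results. All 11 mid villus genes were higher (median 1.55, for example the peptide transporter Slc15a1 at 2.03 and the sugar transporter Slc2a2 at 1.98), with a summed 1039 to 4791 TPM in WT and 4768 to 8950 TPM in KO. Of 9 upper villus genes 6 were higher, led by the apolipoprotein gene Apoa4 at 2.06 (395 to 2359 TPM in WT, 2302 to 5901 TPM in KO), and of 7 lower villus genes 3 were higher, led by Reg1 at 1.66 (1977 to 4750 TPM in WT, 3757 to 7364 TPM in KO). Of 10 crypt base and cycling genes, 7 were lower and 0 higher, with the stem cell genes Ascl2 at -0.57 and Olfm4 at -0.50 (3003 to 5102 TPM in WT, 2193 to 3287 TPM in KO). Beside these counts, 15.6% of all genes tested were higher and 12.7% lower. The part of villus and crypt cells in the result was not tested.

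Immune cells also carry interferon-stimulated genes. Of 14 markers of T cells and intraepithelial lymphocytes, 0 were called in either direction by edgeR, 0 by DESeq2 and 0 at an unadjusted p below 0.05, at a summed 128 to 479 TPM in WT and 190 to 509 TPM in KO. Of these 14 log2 fold changes, 12 were above 0. Their standard errors ran from 0.30 (Trbc2) to 0.49 (Ccl5), so a difference could go uncalled. Of 10 markers of macrophages and dendritic cells, 3 (C1qa, C1qb and C1qc) were lower (39.2 to 90.1 TPM in WT, 19.1 to 112 TPM in KO), and of 6 markers of B and plasma cells, 2 (Jchain and Cd79b) were lower (20.2 to 60.5 TPM in WT, 6.89 to 18.6 TPM in KO). No immune marker was higher at the threshold, where 15.6% of all genes tested were higher and 12.7% lower. Of 7 markers of fibroblasts and muscle, 0 were called by edgeR, 0 by DESeq2 and 0 at an unadjusted p below 0.05 (2.99 to 41.6 TPM in WT, 3.80 to 50.8 TPM in KO). Their log2 standard errors were larger still, from 0.56 (Myh11) to 1.00 (Col3a1).

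Upstream of these genes, interferons themselves were at or near 0. Of 20 interferon genes, 17 had 0 counts in every library and none passed the filter, and their counts summed to 0 to 2 per WT library and 0 to 4 per KO library. The highest single value was 3 counts, of Ifnz in KO replicate 2. A count of 0 allows up to 3 counts in a library of this depth, for counting error only, so a difference in interferon transcripts was not detectable here.

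Interferon receptor genes were higher in 5 of 6 (83.3%), where 15.6% of all genes tested were higher. Ifnlr1, the chain particular to type III interferon, had 4.35 to 7.97 CPM in WT and 9.29 to 12.9 CPM in KO (log2 fold change 0.81, SE 0.15, adjusted p = 0.00352), without overlap. Its partner Il10rb (0.58, SE 0.12, adjusted p = 0.00440) and the type II chains Ifngr2 (0.58, SE 0.10, adjusted p = 0.00164) and Ifngr1 (0.24, SE 0.06, adjusted p = 0.0106) were higher, also without overlap. Of the type I receptor, Ifnar2 was higher (0.51, SE 0.16, adjusted p = 0.0296) and Ifnar1 was not called (0.15, SE 0.06, adjusted p = 0.0821). None of the 6 was on the Ent_05 list.

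Of 5 signal transducers, Jak2 was higher (0.78, SE 0.10, adjusted p = 0.000799), at 48.0 to 68.2 CPM in WT and 85.4 to 108 CPM in KO. Of 10 feedback inhibitors, Irf2, a repressor at ISRE sites, was higher (0.38) and the phosphatase gene Ptpn1 was lower (-0.33), and the suppressors Socs1 and Socs3 were not called. Of 13 tested inducers upstream of interferon, 3 were higher (Tlr3, an endosomal RNA receptor, 0.67, the kinase gene Tbk1, 0.52, and the adaptor gene Ticam1, 0.47). Another 3 were lower, which were Irf5 (-1.28), Tmem173, which encodes STING (-0.74), and Mb21d1, which encodes the DNA sensor cGAS (-0.50). Of all genes tested, 15.6% were higher and 12.7% lower. The shares were 20% higher among the transducers, 10% higher and 10% lower among the inhibitors, and 23.1% each way among the inducers. On so few genes these lie near the shares of all genes and are not read as a result about the lists.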

How the data were processed

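The authors aligned reads with STAR and estimated gene levels with RSEM on GRCm38 (nf-core pipeline, Ensembl annotation). They deposited, per library, expected counts, which are not normalized between libraries, and TPM, scaled by transcript length to a fixed total per library. The strand setting was not given in the sources used here. Deposited FPKM and length columns were not used.

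Expected counts were rounded, filtered with filterByExpr (minimum count 10, minimum total 15), scaled by TMM and tested with the robust quasi-likelihood test of edgeR 4.0.16 (R 4.3.3) with Benjamini-Hochberg adjustment over all genes tested at 0.05. Levels are CPM on TMM library sizes, and levels between genes are TPM. List levels are means of log2 CPM (prior count 0.5) centered over libraries. Genes with values per library were, in each role, the one with the highest mean TPM and the one with the largest log2 fold change. From other lists, Arid3a, Ifnlr1, Ifnar1, Ifngr1 and the 2 largest called changes per list were named, and genes beyond these were chosen after their values were seen. The members and lists were chosen with earlier results of these data known. Replicates with the same number did not deviate together (r from -0.212 to 0.0947), and no pair of libraries agreed within sampling noise. Alternatives used DESeq2 1.42.0 and limma 3.58.1. Single-cell and other data of the study were not analysed here, and 1 gene that the naming rule covers is not reported here.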

Additional observations from a re-analysis of the deposited data

Results flagged for a closer look

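Within each genotype, a library was far from the nearest of the other 4 for 7 of the 98 gene and genotype groups, by Dixon's criterion for 5 samples, and chance flags about 1 in 20 groups. KO replicate 1 was the highest KO library for Dhx58 (9.91 CPM, next 5.53), Oas2 (2.12 CPM, next 1.29) and Mx2 (1.25 CPM, next 0.544). WT replicate 5 was the highest WT library for Oas2 (0.946 CPM, next 0.689) and Bst2 (8.18 CPM, next 5.46). WT replicate 1 was the highest for Dtx3l (54.8 CPM, next 47.8), and WT replicate 2 for Mx2 (0.689 CPM, next 0.234).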

How the results depend on the processing

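The count of 0 genes lower held under every alternative tried, in each case with the tool named: DESeq2, limma-voom, limma on TPM and edgeR with other scalings, filters and libraries. The count of genes higher was 37 with edgeR, 37 with DESeq2 and 28 of 43 tested on log2(TPM + 1). It ran from 32 to 38 when 1 library was left out, where 11.8% to 17.2% of all genes tested were higher. Without WT replicates 3 and 4 it was 22, with 21 on the Ent_05 list and 1 off it. Off the list, 3 were called with limma on log2(TPM + 1) and 3 on log2(TPM + 0.1), where 10 of the 13 genes were tested, and 4 to 6 when 1 library was left out. Of the further interferon-stimulated genes, 10 were called without WT replicates 3 and 4, and 13 to 21 when 1 library was left out, the lowest without KO replicate 1. The replicate number as a block gave 36 genes higher (31 on the list, 5 off it), the call on Igtp was the one lost, and over all genes tested it gave 1861 higher and 1191 lower against 2298 and 1869. The numbers did not pair the libraries. With library size alone as the scaling, the median of all genes was -0.16 with 1541 higher and 4030 lower, and with limma on log2(TPM + 1) it was -0.11, with 1392 higher and 2741 lower, while 36 and 28 of the genes were called. Of the 37 called genes, 21 were called in every alternative that tested them, and 16 lost the call in at least 1. Without the filter on low counts the calls on Zbp1, Igtp and Ifi44 were lost, with library size scaling that on Irf9, and with limma on log2(TPM + 1) those on Stat2, Dhx58, Dtx3l and Cmpk2. No called gene changed sign. Genes that were not called changed sign as follows. Bst2 stood at -0.125 with library size scaling, -0.084 and -0.091 with limma on log2(TPM + 1) and log2(TPM + 0.1), -0.064 without WT replicates 3 and 4, and -0.11 to 0.21 when 1 library was left out. Gbp2 stood at 0.010 with the block, 0.051 with limma-voom and -0.35 to 0.25 when 1 library was left out. Eif2ak2 (-0.016) and Lgals3bp (-0.012) turned with library size scaling, and Ifit2 ran from -0.068 to 0.0056 when 1 library was left out. The 6 genes below 1 TPM rest on few counts. The cause of these changes was not tested.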
